A study of Mus musculus with 12 samples.

Results

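Atf7ip and 9 other genes of the SETDB1 silencing machinery (Setdb1, Trim28, Mphosph8, Fam208a, Pphln1, Morc2a, Dnmt1, Ehmt1 and Ehmt2) were followed in a mouse ChIP-seq study of neural progenitor cells. They are 10 of the 49997 genes in the reference annotation and were chosen by name. For trimethylated lysine 9 of histone H3 (H3K9me3), a mark of silent heterochromatin, their values are the rows of the authors' region table that carry the gene's symbol. Those rows number 9 of 50654, and every one of them belongs to Atf7ip. For acetylated lysine 27 of histone H3 (H3K27ac), a mark of active promoters and enhancers, their values are the peaks in each gene or within 1 kb of it.

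The cells were neurosphere cultures grown from the ganglionic eminence, the ventral forebrain region that produces cortical interneurons, of C57BL/6 embryos at day 15.5. The Nestin-KO group (KO) lacks Setdb1 in the Nestin lineage, going by the study's title and genotype label, and the comparison group is labelled WT. Nestin is a gene of neural progenitors, and neither the construct behind the deletion nor the alleles of the WT embryos are given in these sources. Each mark was measured in 3 KO and 3 WT animals. All 3 KO animals of the H3K9me3 set were male, against 1 male and 2 females in WT, so sex and genotype cannot be fully told apart there, and none of the 10 genes lies on a sex chromosome. The first number in the sample titles, whose meaning is not stated, was shared in the H3K9me3 set by 1 KO and 1 WT animal, while the other 2 WT animals had one of their own and the other 2 KO animals another, so beyond the first pair it cannot be told apart from genotype. The H3K27ac set had 1 female and 2 males per genotype. An H3K27ac peak was present at 4 to 8 of 8 neural progenitor marker genes per library, with Nes, Pax6 and Fabp7 marked in all 6 libraries. Only 0 to 3 of 8 ganglionic eminence markers had one, and Dlx2, Dlx5, Dlx6, Gsx2 and Gad2 had none in any library. Markers of other cell types were marked as well. The counts were 1 to 4 of 4 for the oligodendrocyte lineage and 0 to 3 of 3 for astrocytes. They were 2 to 3 of 5 for neurons and 0 to 1 of 5 for cortical excitatory neurons. For microglia and blood they were 0 to 3 of 6, and for vascular and mesenchymal cells 1 to 2 of 6. Olig1, the neuron genes Syt1 and Map2 and the vascular gene Pecam1 were marked in all 6 libraries. Over all genes with a start site, 15.6% to 36.4% per library had a peak within 1 kb of a start. A count near that share does not identify a cell type. The part of other cell types in the results was not tested.

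SETDB1 is a histone methyltransferase that places H3K9me3 at repeats and at selected genes. ATF7IP is its nuclear partner and keeps the enzyme stable and in the nucleus. TRIM28 brings SETDB1 to sites bound by KRAB zinc finger proteins. The HUSH complex, made of MPHOSPH8, which binds H3K9me3 through its chromodomain, TASOR (Fam208a) and periphilin (Pphln1), works with SETDB1 and the ATPase MORC2 to spread silencing. DNMT1 copies DNA methylation after replication, and EHMT1 and EHMT2 (GLP and G9a) place the lower methylation states of the same lysine. Changes of H3K9me3 or H3K27ac at these genes say nothing directly about the amount of the proteins.

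The start sites of these genes differ in their sequence and in whether the progenitors marked them with H3K27ac, so the 250 bases before the start are shown for 7 of the 15 annotated member starts, 5′ to 3′ on the gene's strand with each CG in capitals. They come from RefSeq annotation of GRCm38.p6 (mm10), in which all 10 genes had at least 1 start. The first 4 starts and the middle Dnmt1 start had an H3K27ac peak within 1 kb in 5 or 6 libraries, and the second Morc2a start and the upstream Dnmt1 start had one in 0 of 6.
Atf7ip (chr6:136518601-136518850, plus strand): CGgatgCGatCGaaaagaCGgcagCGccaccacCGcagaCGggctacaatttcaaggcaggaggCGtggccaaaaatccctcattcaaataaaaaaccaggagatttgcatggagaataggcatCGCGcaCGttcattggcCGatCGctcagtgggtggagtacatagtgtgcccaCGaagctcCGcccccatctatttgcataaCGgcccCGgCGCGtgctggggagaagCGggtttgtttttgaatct
Setdb1 (chr3:95357203-95357452, minus strand): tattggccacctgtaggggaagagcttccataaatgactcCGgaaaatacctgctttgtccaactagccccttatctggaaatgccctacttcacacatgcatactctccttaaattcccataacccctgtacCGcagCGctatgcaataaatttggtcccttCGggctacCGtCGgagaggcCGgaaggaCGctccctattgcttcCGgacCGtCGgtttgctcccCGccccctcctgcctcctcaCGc
Fam208a (chr14:27428584-27428833, plus strand): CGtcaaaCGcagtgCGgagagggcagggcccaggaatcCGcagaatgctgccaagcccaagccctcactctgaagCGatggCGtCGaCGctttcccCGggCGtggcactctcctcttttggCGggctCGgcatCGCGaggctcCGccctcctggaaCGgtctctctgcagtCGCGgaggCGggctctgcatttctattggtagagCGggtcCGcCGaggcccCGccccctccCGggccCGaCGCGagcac
Morc2a, first start (chr11:3649187-3649436, plus strand): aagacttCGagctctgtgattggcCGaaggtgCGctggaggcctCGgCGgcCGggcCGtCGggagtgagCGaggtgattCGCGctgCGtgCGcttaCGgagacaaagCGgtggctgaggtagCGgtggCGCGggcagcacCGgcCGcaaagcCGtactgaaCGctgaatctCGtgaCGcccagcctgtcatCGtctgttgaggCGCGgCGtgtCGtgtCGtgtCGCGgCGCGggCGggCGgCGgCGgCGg
Morc2a, second start (chr11:3658422-3658671, plus strand): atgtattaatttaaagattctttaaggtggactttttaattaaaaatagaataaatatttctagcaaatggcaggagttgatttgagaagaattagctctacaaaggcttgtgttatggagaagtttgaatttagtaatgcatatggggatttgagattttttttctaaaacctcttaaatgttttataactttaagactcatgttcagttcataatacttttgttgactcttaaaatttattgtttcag
Dnmt1, upstream start (chr9:20959889-20960138, minus strand): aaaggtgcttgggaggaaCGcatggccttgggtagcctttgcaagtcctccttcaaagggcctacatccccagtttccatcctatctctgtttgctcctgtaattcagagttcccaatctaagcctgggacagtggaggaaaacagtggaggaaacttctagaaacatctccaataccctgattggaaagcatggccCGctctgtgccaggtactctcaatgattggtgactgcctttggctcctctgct
Dnmt1, middle start (chr9:20952980-20953229, minus strand): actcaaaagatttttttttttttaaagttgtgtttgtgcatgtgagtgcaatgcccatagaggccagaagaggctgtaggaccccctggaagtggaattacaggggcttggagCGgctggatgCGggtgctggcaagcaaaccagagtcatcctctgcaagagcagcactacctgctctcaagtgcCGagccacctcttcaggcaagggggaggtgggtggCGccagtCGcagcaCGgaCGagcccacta
The Atf7ip window holds 20 CG and is 54.8% G or C. Over 32851 such windows in the reference the medians were 6 CG and 52.4%. The Setdb1 window holds 13 CG, the Fam208a window 27 and the first Morc2a window 39. The second Morc2a window holds 0 CG, is 26.4% G or C and contains TATAAA 1 time on the strand opposite to the printed one, a motif found on either strand in 12.4% of all windows. The upstream Dnmt1 window holds 2 CG and 4 copies of CCAAT, 2 on the printed strand and 2 on the other, a motif that 33.8% of all windows contain on either strand. The middle Dnmt1 window holds 7 CG. The window of the Dnmt1 start farthest downstream (chr9:20952623), not printed here, holds 26 CG, and that start had a peak within 1 kb in the same 5 libraries. The peaks counted for the middle start also lie within 1 kb of this one, so the count does not tell the starts apart. CCGGAAG was found 2 times in the Setdb1 window, 1 time on each strand, against a presence in 6.91% of all windows. These matches describe the letters of each window and are not bound sites.

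The H3K9me3 signal at the listed Atf7ip regions, which cover 13.1% of the gene, was lower in the KO cells. Summed over its 9 regions, the normalised read count was 56.0, 98.1 and 331 in the 3 KO libraries and 574, 551 and 549 in the 3 WT libraries. The WT libraries lay close together, and every KO library lay below all of them, with the third listed KO value well above the other KO values. The means were 162 ± 148 (SD, n = 3) in KO and 558 ± 14.1 (SD, n = 3) in WT, which is 3.45 times more in WT. limma on log2(sum + 1) gave a log2 fold change of -2.18 (SE 0.57) with a Benjamini-Hochberg adjusted p of 0.0359. The authors selected the listed regions on the same libraries, so this p-value depends on that selection and is no independent test. Whole cultures were measured, so less of the mark in every cell and its absence from a share of the cells cannot be told apart. By the same test 47.9% of the 5667 gene symbols with a listed region were lower and 3.49% higher, so the call itself is common in this table. The gene sum passed under every other setting that kept all libraries, with adjusted p from 0.00657 to 0.0477. The lowest came from limma-voom on recovered reads, by which 67.8% of gene sums were lower and 7.32% higher. It did not pass when the second KO value (0.113) or the first, the second or the third WT value (0.0984, 0.124 and 0.0972) was left out, with log2 fold changes of -2.02, -2.16, -2.19 and -2.19, and it passed without the first KO value (-1.62, 0.0457) and without the third (-2.89, 0.000345; all adjusted p by limma). In the 4 settings without a call, 0 of 5667 gene sums were lower by limma (1967 to 2400 at an unadjusted p under 0.05), and without the third KO value 77.7% were, so the losses and the gain were those of the whole table.

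The size of the Atf7ip change can be set beside that of other genes. Its log2 fold change of -2.18 compares with a median of -1.35 over the gene sums, and 546 of 5667 genes (9.63%) had a lower value. Among the 630 genes with at least 5 listed regions, 8 (1.27%) had a lower median of the authors' log2 fold changes than Atf7ip, and 441 had lower regions only. That median was -1.93 for Atf7ip in the authors' deposited table, against -0.94 over all listed regions and -1.17 over those listed as lower. When the libraries were rescaled by median ratios over the listed regions, the median region moved up by 0.81 on the log2 scale. The Atf7ip sum was then -1.35 with an adjusted p of 0.0250 by limma, where 14.0% of gene sums were lower and 18.5% higher.

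**Figure D1:**
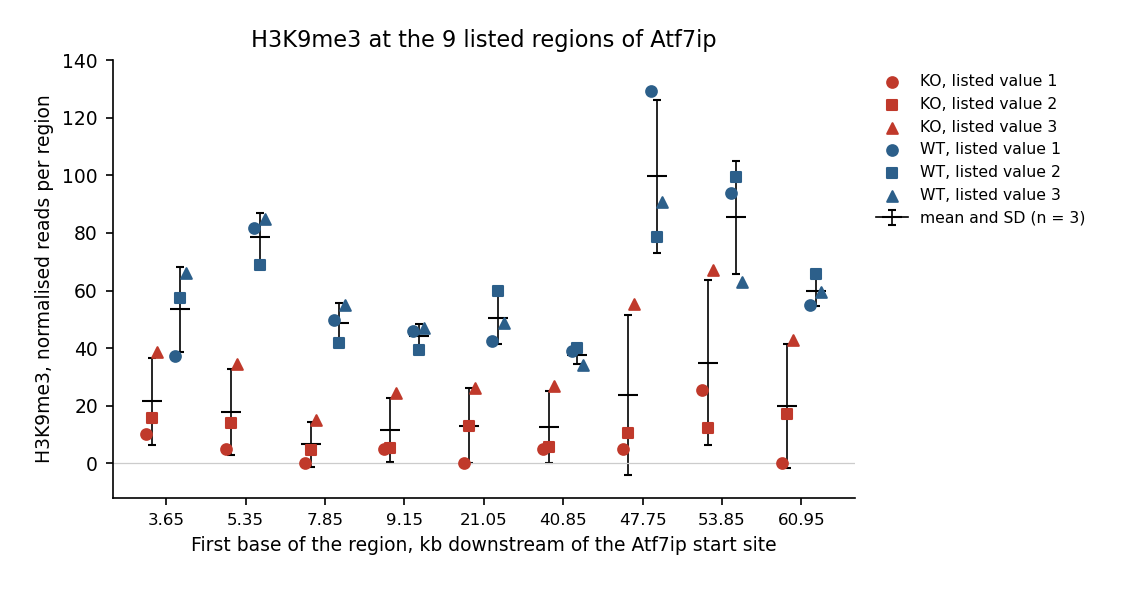
H3K9me3 at each of the 9 listed Atf7ip regions, in normalised reads per region (y axis), by the distance in kb of the region's first base from the start site (x axis). Points are the 3 KO and 3 WT libraries in listed order, and bars are the mean and SD (n = 3). KO points lie below the WT points at 7 regions and overlap them at 3.65 kb and 53.85 kb, and the third KO value is the highest KO value at all 9.

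The 9 regions start between 3.65 and 60.95 kb downstream of the Atf7ip start site (chr6:136518851, plus strand; the gene, ID 54343, covers chr6:136518789-136610850 in mm10) and cover 12.1 kb or 13.1% of the gene. The authors' deposited table places all 9 in its gene body class, and whether they are exonic or intronic was not determined here. The region nearest the start, chr6:136522501-136523500, had 10.2, 15.7 and 38.7 normalised reads in KO and 37.2, 57.4 and 66.0 in WT, so the highest KO value and the lowest WT value overlapped. The second, chr6:136524201-136525800, had 5.09, 13.9 and 34.5 in KO against 81.5, 68.9 and 84.8 in WT. There the groups were well apart, and the log2 fold change by limma was -2.42 (SE 0.59, adjusted p = 0.0471).

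Further into the gene, chr6:136526701-136527700 carried the lowest KO mean of the 9, with 0, 4.80 and 15.1 normalised reads in KO and 49.6, 41.8 and 55.1 in WT. Its fitted change was also the most negative of the 9, a log2 fold change of -3.45 on the log2(value + 1) scale, but the adjusted p by limma was 0.0797. The first KO library held no read there. At chr6:136566601-136568500, 47.75 kb from the start, the values were 5.09, 10.5 and 55.5 in KO and 129, 78.7 and 90.6 in WT. This region had the highest WT mean of the 9, 99.6 ± 26.5 (SD, n = 3), against 23.7 ± 27.7 in KO, and fell by 2.64 on the log2 scale (SE 0.72, adjusted p = 0.0482 by limma). The next, chr6:136572701-136574600, had 25.5, 12.2 and 67.2 in KO and 94.0, 99.2 and 63.1 in WT, and its groups overlapped through the third value of each.

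The other 4 regions start 9.15, 21.05, 40.85 and 60.95 kb from the start site. Their single KO values ran from 0 to 42.9 normalised reads and their WT values from 34.1 to 65.6, and within each region the groups did not overlap. Their adjusted p by limma ran from 0.0600 to 0.0844. Across the 9 regions, the KO values lay entirely below the WT values at 7. That is the case for 54.2% of all listed regions and 76.3% of those listed as lower, so 7 of 9 is close to the second share.

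The authors called all 9 Atf7ip regions lower, as they did 71.1% of the listed regions, with 28.9% called higher. The log2 values that the authors' deposited table gives for them ran from -2.88 to -1.29. With limma, which uses the spread between libraries, 2 of 9 passed as lower at an adjusted p of 0.05, against 14.9% of all regions lower and 1.24% higher. With limma-voom on the recovered reads, which weighs each value by its depth, 9 of 9 passed with adjusted p from 0.00171 to 0.0341, against 58.0% of all regions. After median-ratio scaling 2 of 9 passed by limma, against 5.97% of all regions lower and 27.7% higher. Without the third KO value 9 of 9 passed by limma, as did 61.1% of all regions. The first or second KO value or any single WT value was also left out in turn. Then 0 of 9 and 0 of all 50654 regions were lower by limma at an adjusted p of 0.05. At an unadjusted p under 0.05 by limma, 2 to 9 of the 9 and 12340 to 20756 of all regions were lower in those settings. The 9 of 9 without the third KO value and the 0 of 9 without another value therefore follow the whole table.

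The KO libraries differed in the value of 1 read as well as in level. A single read was worth 2.55, 0.436 and 0.840 normalised units at the first, the second and the third KO position and 1.77, 0.820 and 0.725 at the WT positions. The 9 Atf7ip regions together held 22, 225 and 394 reads in KO and 324, 672 and 757 in WT. The first KO value therefore rests on few reads, and its 3 zeros allow up to 7.64 normalised units each (3 reads, counting error only). The third KO value was the highest KO value at 9 of 9 Atf7ip regions and at 81.9% of all regions listed as lower, so this order was frequent in the table. The authors' enrichment, a ratio whose denominator is not stated, was below 1 in KO at 8 of 9 Atf7ip regions and in WT at 0 of 9, in the authors' deposited table. Of all regions listed as lower, 68.9% were below 1 in KO.

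**Figure D2:**
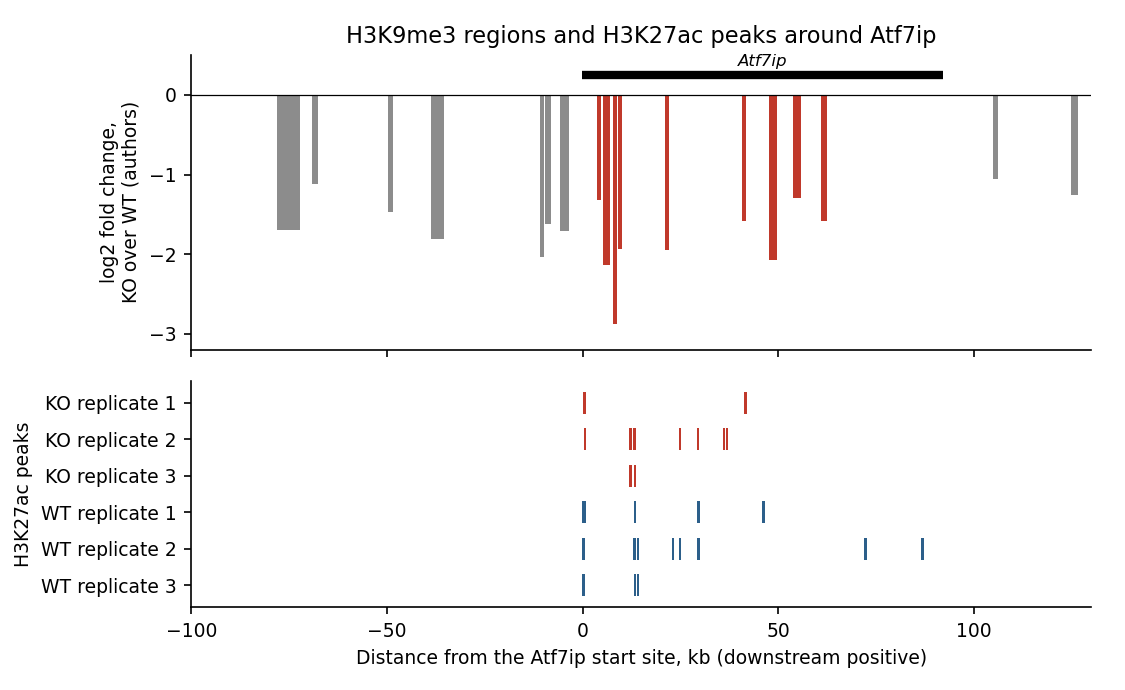
Both x axes give the distance from the Atf7ip start site in kb; the upper panel shows the authors' log2 fold change of each listed H3K9me3 region (bars; red for Atf7ip, grey for other regions, width to scale), and the lower panel the H3K27ac peaks of each library. The 9 Atf7ip regions begin 3.65 kb into the gene with values from -2.88 to -1.29, and a start-site peak appears in 5 of 6 libraries and is missing in the third KO library.

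Most H3K27ac peak positions at Atf7ip lay outside the listed H3K9me3 regions, which cover only 13.1% of the gene. Whether the marks avoid each other there was not tested. Merged over libraries, the gene had 13 separate peak positions, 1 at the start site and 12 away from it, and 7 of those 12 were seen in 1 library only. The start peak, chr6:136518807-136519556, was present in KO libraries 1 and 2 and in all 3 WT libraries. Its fold enrichment was 6.41 and 3.64 in the 2 KO libraries and 8.15, 8.32 and 4.19 in the 3 WT libraries. Within its own list the strongest start peak stood in the top 18.3% and 72.4% of peaks in KO and in the top 5.00%, 1.16% and 50.2% in WT. Both KO folds were below the first 2 WT folds and the lower of them was below all 3, but peak folds from lists of different length carry no test. A second position, chr6:136531837-136532576, 13.0 kb into the gene and between the fourth and the fifth H3K9me3 region, had a peak in KO libraries 2 and 3 and in all 3 WT libraries. Beside it, chr6:136530807-136531060 was seen in KO libraries 2 and 3 only and chr6:136532751-136533290 in WT libraries 2 and 3 only. A single peak overlapped an H3K9me3 region, chr6:136560224-136560460 in KO library 1 with a fold of 4.05, among the weaker peaks of that list (top 79.1%).

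Regions around Atf7ip were mostly lower too. Within 1 Mb on either side of the gene, leaving Atf7ip out, the table lists 38 regions, of which 36 were lower and 2 higher, and the median of the log2 values that the authors' deposited table gives for them was -1.43. With the Atf7ip regions 95.7% were lower, against 63.7% of the 2854 regions on chromosome 6. The named neighbours were lower at each of their regions: Plbd1 (2 regions, 12.9 kb away, -1.26 and -1.05), E330021D16Rik (1 region, -1.23), Art4, which carries a blood group antigen (1 region, -1.46), and Grin2b, a subunit of the NMDA receptor (7 regions, 348 kb away, -2.45 to -1.31), all in the authors' deposited table. Farther out were Rerg (1 region, -1.96), the receptor phosphatase gene Ptpro (5 regions, -2.12 to -0.74), 4930425L21Rik (2 regions, -1.43 and -1.12) and Eps8 (4 regions, -1.43 to -1.05), again from the authors' deposited table. The region chr6:136351701-136353800 went the other way, with 84.1, 189 and 191 normalised reads in KO and 15.9, 41.0 and 123 in WT. Its groups overlapped, and the adjusted p by limma was 0.0682.

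Each gene's mean of log2(value + 1) over its regions was correlated with that of Atf7ip over the 6 libraries. The closest, among the 630 genes with at least 5 regions, were Mgmt (Pearson r = 0.9996), Hs6st3 (0.9989), Tspan5 (0.9988), Mpp7 (0.9986) and Mbnl2 (0.9984). The correlations are over 6 libraries that share 1 genotype contrast and the same depths, and the median r over those genes was already 0.975. Mgmt, for example, summed over its regions to 45.9, 72.8 and 192 normalised reads in KO and 323, 300.2 and 337 in WT. These sums are not the values that were correlated. The pattern of 3 close WT values over a higher value at the third KO position was therefore shared widely in the table.

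None of the other 9 genes had a listed H3K9me3 region, by symbol, within the gene or within 1 kb of it. Because the table lists only regions that the authors selected, this does not give their H3K9me3 level. A listed region is also not the usual case: 22.8% of 21900 protein-coding genes of the reference have one. The distance to the nearest listed region ran from 4.47 kb for Trim28 to 136 kb for Mphosph8.

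Around Setdb1 itself (chr3:95323525-95357202), the deleted gene, the nearest listed region lay 18.3 kb away with 28.0, 20.9 and 79.0 normalised reads in KO and 117, 121 and 170.4 in WT. The groups did not overlap, and the adjusted p by limma was 0.0471. Within 1 Mb 24 regions were lower and 1 higher, on a chromosome where 87.4% were lower. The peaks and regions do not check the deletion, since these sources do not say which part is deleted.

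Trim28 (chr7:13024152-13031032), the corepressor that recruits SETDB1, sat in a neighbourhood of the opposite kind. Its nearest listed region, in the authors' promoter class of Chmp2a, had 30.6, 23.5 and 48.8 normalised reads in KO against 10.6, 18.0 and 27.6 in WT. The values overlapped and the adjusted p by limma was 0.166. Within 1 Mb 35 regions were lower and 134 higher, or 20.7% lower, against 32.3% on the whole of chromosome 7.

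The 3 HUSH genes lay in stretches where every listed region was lower. Within 1 Mb there were 18 lower and 0 higher regions around Mphosph8 (chr14:56668235-56697430), 23 and 0 around Fam208a (chr14:27423674-27483555) and 40 and 0 around Pphln1 (chr15:93398345-93491913). The share of lower regions was 60.6% on chromosome 14 and 78.3% on chromosome 15. Genes on these chromosomes from the wider silencing list given below had similar counts. These were 22 and 0 around Setdb2, 17 and 0 around Zmym2, whose window overlaps that of Mphosph8, and 38 and 1 around Cbx5. The trait is therefore not particular to the HUSH genes. The region nearest Fam208a, 13.7 kb away, had 0, 10.5 and 45.4 normalised reads in KO and 67.4, 68.9 and 58.7 in WT. Its groups did not overlap, and it did not pass by limma (adjusted p = 0.0709).

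Morc2a (chr11:3649189-3690477), whose product acts with HUSH, had 18 lower and 16 higher regions within 1 Mb, or 52.9% lower, on a chromosome where 90.6% were lower. Dnmt1 (chr9:20907206-20959888) had 33 lower and 23 higher, or 58.9% lower, against 87.6% on chromosome 9. The region nearest Dnmt1, in the promoter class of Angptl6, had 45.9, 44.5 and 68.9 normalised reads in KO and 79.8, 130.4 and 108.0 in WT. The groups did not overlap, with an adjusted p of 0.0544 by limma.

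Ehmt1 (chr2:24790769-24919643) had 25 lower and 4 higher regions within 1 Mb, or 86.2% lower, against 80.9% on chromosome 2. Ehmt2 (chr17:34898463-34914073) had 43 lower and 1 higher, or 97.7% lower, against 59.2% on chromosome 17. The region nearest Ehmt2 lay 104 kb away and had 20.4, 56.2 and 176.5 normalised reads in KO and 273, 348 and 370.5 in WT. Here the third KO value was more than the other KO values together and still below every WT value, and the region fell (adjusted p = 0.0474 by limma). These neighbourhood shares were not tested against each other.

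**Figure D3:**
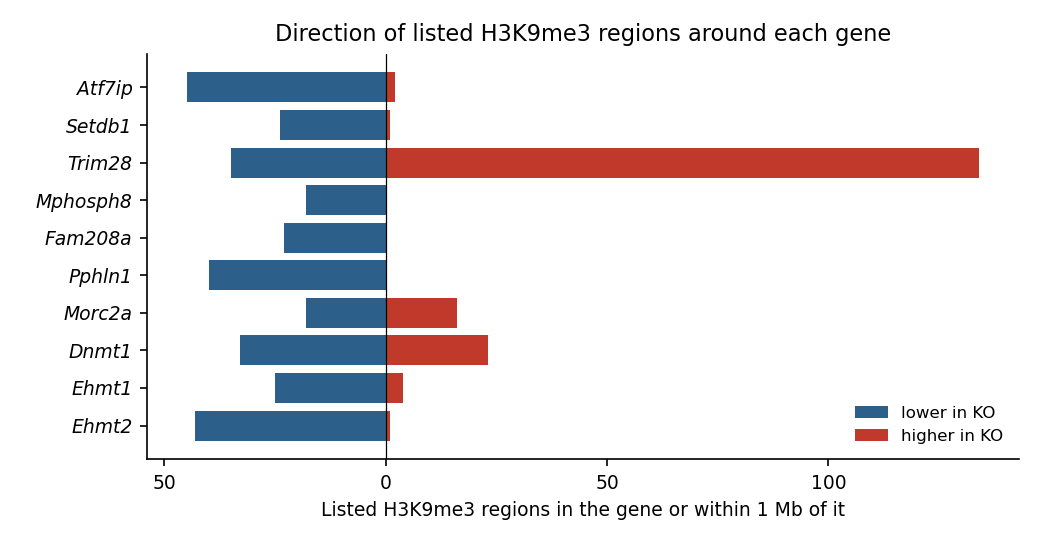
Number of listed H3K9me3 regions in each of the 10 genes or within 1 Mb of it (x axis, counted away from 0 on both sides), by gene (y axis), with regions lower in KO to the left and higher in KO to the right by the authors' direction. Mphosph8, Fam208a and Pphln1 have no bar to the right, and Trim28 has 134 higher against 35 lower regions.

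All 10 genes carried H3K27ac at a start site in the first 2 libraries of both genotypes. In the reference, 29.1% of 27025 genes with a start site had a start peak in all 4 of those libraries. The third libraries had shorter lists, 11446 peaks in KO and 12446 in WT against 26344 to 42651 in the others, and all absences were there: 5 of 10 genes had a start peak in the third KO library and 6 of 10 in the third WT library. Over all genes the share with a start peak was 15.6% and 17.1% there and 34.9% to 36.4% in the other libraries. Counting any peak in or near the gene, 10, 10 and 6 genes were marked in KO and 10, 10 and 7 in WT (means 8.67 ± 2.31 and 9 ± 1.73, SD, n = 3). That count is at its ceiling in 4 of 6 libraries. Among the strongest 10000 peaks of each list, 7, 4 and 4 genes were marked in KO and 6, 9 and 5 in WT (means 5 ± 1.73 and 6.67 ± 2.08, SD, n = 3), and the groups overlapped. The share of all genes at that cut is not given here, so these counts cannot be set against genes in general.

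Only Fam208a and Morc2a kept a start peak in all 6 libraries, as did 11.3% of genes. The Fam208a start peak had a fold enrichment of 8.58, 7.11 and 5.24 in KO and 6.95, 8.83 and 5.07 in WT, within the top 0.732% to 19.5% of each list. It was a strong peak in either genotype, and the values overlapped. The Setdb1 start had folds of 5.07, 6.03 and 3.94 in KO and 8.11 and 5.12 in WT libraries 1 and 2, with none in the third WT library. Setdb1, Pphln1 and Dnmt1 had a start peak in 3 KO and 2 WT libraries, and Atf7ip, Trim28, Ehmt1 and Ehmt2 in 2 KO and 3 WT libraries. Mphosph8 lacked one in the third library of each genotype. A difference of 1 library between 3 and 3 cannot be tested usefully, since the smallest two-sided p that an exact test of presence allows there is 0.1.

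Start peaks of the other genes ranked lower or varied more. In the lists where each gene had a start peak, Trim28 stood in the top 13.0% to 54.5% of peaks, Mphosph8 in the top 6.37% to 39.97%, Pphln1 in the top 14.5% to 36.4% and Morc2a in the top 3.22% to 68.0%. Dnmt1 ranged from the top 11.6% to 91.3%, Ehmt1 from 21.7% to 84.2% and Ehmt2 from 34.8% to 84.3%. At Dnmt1, peaks within chr9:20951877-20952513 occurred in all 3 KO libraries and in WT libraries 1 and 2. They lay 0.11 kb or more from the start farthest downstream, the nearest one, and also within 1 kb of the middle start. Counts within 1 kb therefore do not tell these starts apart. At the upstream start chr9:20959888, 0 of 6 libraries had a peak. A further Dnmt1 position, chr9:20943633-20944617, 8.01 kb from the nearest start site, was seen in 5 libraries. Morc2a had a peak within 1 kb of the CG-rich start chr11:3649437 in 6 of 6 libraries and of chr11:3658672 in 0 of 6. The position shared by all 6, chr11:3648134-3649044, ended 0.393 kb upstream of that start. A peak reaching the start itself was seen in 3 libraries, KO library 1 and WT libraries 1 and 2. These 9 genes have no listed H3K9me3 region in them or within 1 kb. That none of their peaks overlapped one follows from this and says nothing about the 2 marks.

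**Figure D4:**
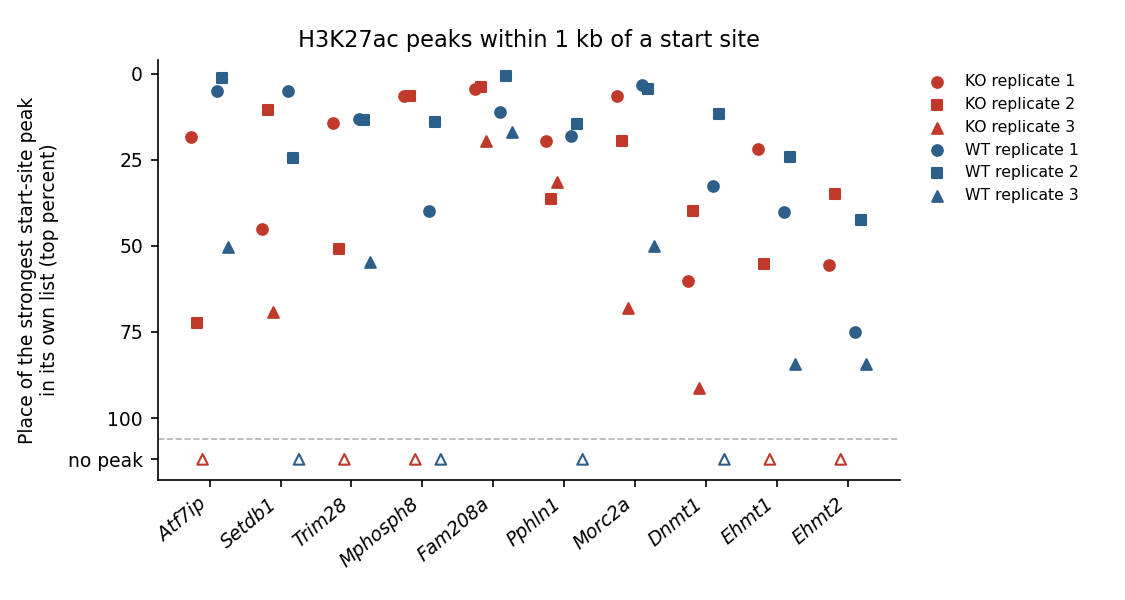
Place of the strongest H3K27ac start-site peak within its library's own list, as top percent by fold enrichment (y axis, strongest at the top), for each of the 10 genes (x axis), with 1 symbol per KO or WT library and open symbols for no start-site peak. All open symbols belong to the libraries numbered 3, and Fam208a stays within the top 19.5% in all 6 libraries.

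A wider list of 51 genes of H3K9 methylation and repeat silencing places Atf7ip among related genes. Of these, 13 (25.5%) had a listed region, near the 22.8% of protein-coding genes. They held 29 regions, 27 lower and 2 higher by the signs in the authors' deposited table, which gives them a median log2 value of -1.50. Of all listed regions the authors called 71.1% lower and 28.9% higher. By limma 14 of 29 regions fell and 0 rose, against 14.9% of all regions lower and 1.24% higher. Of the gene sums 8 of 13 fell and 0 rose by limma, where 47.9% of all gene sums were lower and 3.49% higher. After median-ratio scaling 5 gene sums were lower and 1 was higher, where 14.0% of all gene sums were lower and 18.5% higher. Without the third KO value 12 were lower, as were 77.7% of all gene sums. By limma 0 were lower without the second KO value or any single WT value, as were 0 of all 5667 gene sums. At an unadjusted p under 0.05 by limma, 7 to 9 of the 13 and 1967 to 2400 of all gene sums were lower in those settings.

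The TIF1 family, to which Trim28 belongs, accounted for 8 of the 29 regions. Trim24, a bromodomain protein of that family, had 6 of them and summed to 130, 151 and 461 normalised reads in KO and 831, 1144 and 1027 in WT. The groups were far apart, and the sum fell by 2.24 on the log2 scale (SE 0.48, adjusted p = 0.0359 by limma). Its relative Trim33 summed to 12.7, 17.9 and 78.2 in KO and 124, 138 and 134 in WT over 2 regions and fell by 2.28 (adjusted p = 0.0359 by limma).

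Atf7ip2, the paralogue of Atf7ip, had 2 regions (chr16:10217601-10219500 and chr16:10223701-10225100) and summed to 25.5, 27.9 and 105.9 in KO and 144, 146 and 137 in WT. As at Atf7ip, the WT values lay close together and the third KO value was the highest in KO. The sum fell by 1.72 (SE 0.53, adjusted p = 0.0376 by limma). After median-ratio scaling its log2 fold change was -0.91 with an adjusted p of 0.0648. Its start site had an H3K27ac peak in 0 of 6 libraries, unlike that of Atf7ip.

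Smchd1, a structural protein of the inactive X chromosome, summed to 15.3, 34.0 and 89.9 in KO and 181, 207 and 172 in WT over 3 regions and fell by 2.33 (adjusted p = 0.0359 by limma). Zfp809, a zinc finger protein that brings TRIM28 to retroviral sequences, summed to 112.1, 126 and 413 in KO and 565.5, 704 and 589 in WT over 4 regions and fell by 1.77 (adjusted p = 0.0359). The H3K9 demethylase gene Kdm3a (log2 fold change -1.81), the deacetylase gene Hdac2 (-1.54) and the zinc finger gene Prdm16 (-1.22) also fell by limma, with adjusted p of 0.0359, 0.0364 and 0.0389. After median-ratio scaling Trim24 (-1.42), Trim33 (-1.47), Smchd1 (-1.51), Zfp809 (-0.94) and Kdm3a (-1.004) still passed by limma, with adjusted p from 0.0104 to 0.0450. Hdac2 (-0.72, adjusted p = 0.107) and Prdm16 (-0.41, 0.1704) did not pass by limma on that scale. Morc3 (-1.60, adjusted p = 0.0517), Kdm4d (-1.29, 0.0551), Mecom (-0.66, 0.139) and Mbd1 (-0.65, 0.121) did not pass by limma, and the last 2 were at 0.17 after median-ratio scaling.

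Uhrf1, which guides DNMT1 to newly copied DNA, was the gene of the wider list whose only region was listed as higher. It had 30.6, 39.2 and 49.6 normalised reads in KO and 19.5, 32.0 and 21.0 in WT. The groups overlapped, and the log2 fold change was 0.70 with an adjusted p of 0.179 by limma. After median-ratio scaling it was 1.51 with an adjusted p of 0.0148. The other higher region lay in Mecom, at 0.92 in the authors' deposited table.

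**Figure D5:**
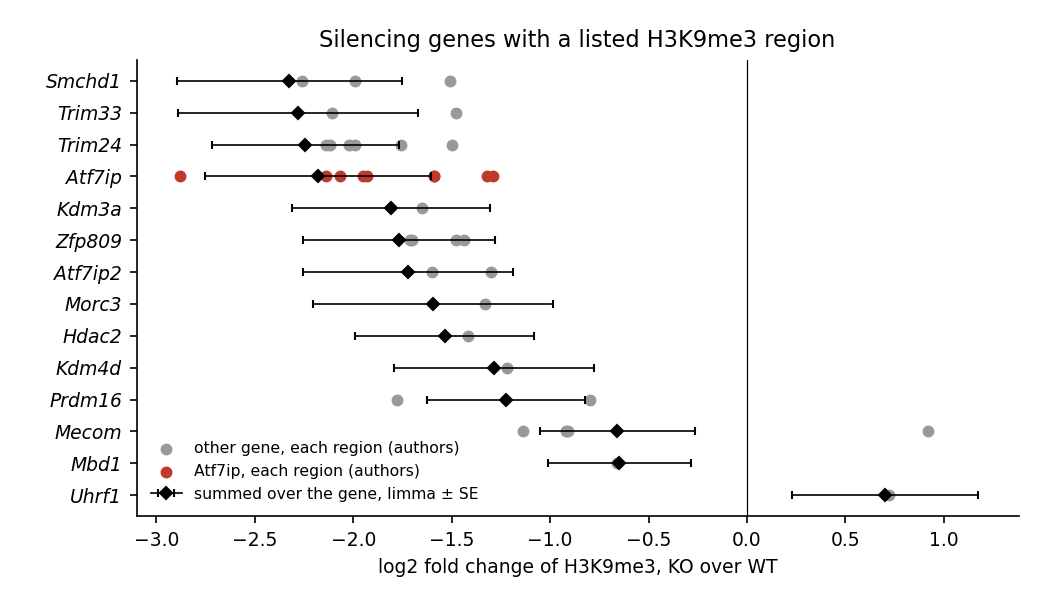
Log2 fold change of H3K9me3, KO over WT (x axis), for Atf7ip and the 13 genes of the wider list with a listed region (y axis). Dots are single regions as the authors give them, and diamonds with bars are the limma estimate of the gene sum and its SE. Smchd1, Trim33, Trim24 and Atf7ip have the lowest sums, between -2.33 and -2.18, and Uhrf1 alone lies above 0 with 0.70.

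H3K27ac was counted in the wider list in the same way. Of its 43 genes with a start site in the reference, 35, 35 and 19 had a start peak in the KO libraries and 36, 36 and 20 in the WT libraries. Over all genes the share was 34.9%, 36.3% and 15.6% in KO and 36.4%, 36.1% and 17.1% in WT. Start peaks were present in all 6 libraries at 14 genes (32.6%, against 11.3% of all genes) and in none at 4, which were Atf7ip2, Morc2b, Dnmt3l and Chaf1b. The KO and WT counts differed by 1 gene in each library pair of the same number.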

How the data were processed

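Native ChIP-seq from 100000 nuclei per library was deposited for 3 KO and 3 WT animals per mark, on mm10. The submitters' processing notes list MACS2 and Bowtie2 2.3.4.3 and do not say which tool compared the H3K9me3 libraries.

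The authors deposited 1 H3K9me3 table, with 50654 regions that the file name describes as 1 kb windows. Each genotype has 1 cell of 3 normalised counts per region, without animal names, and the text refers to them by their position in that cell. Its group means are a normalised signal, its enrichments a ratio, its fold changes log2 of KO over WT, and it gives p-values for each region, per the file headers. These match a test on summed values (largest difference 0.00674 on the log10 scale over 38105 regions with p above 1e-14), which ignores the spread between animals. The H3K27ac files are MACS2 peak lists that the authors deposited, 1 for each library, with a score, a fold and −log10 p and q, which served for ranks and thresholds inside each list. The depth of those libraries is unknown.

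Fits of log2(value + 1) used limma 3.58.1 in R 4.3.3 with its mean-variance trend, over all regions and over gene sums, with a Benjamini-Hochberg adjusted p of 0.05 as the threshold. The listed regions were selected by the authors on the same libraries, and the adjusted p-values depend on that selection. Listed values were whole multiples of 1 read within 0.1 reads for 100% of low values, and limma-voom was run on those reads. Relative depths, taken as the inverse of the value of 1 read, were 17.1%, 100% and 51.9% in KO and 24.6%, 53.2% and 60.1% in WT. They assume that the authors scaled by total reads, which is not stated. A start peak lies within 1 kb of a RefSeq start. Median-ratio scaling, other pseudocounts, no trend, a filter, peak thresholds and leaving out each library were tried. The members and lists were chosen with earlier results of these data known. All members, every wider-list gene with a listed region, the 8 nearest neighbours and the 5 genes most like Atf7ip are named. The labels' title numbers differ between animals without a stated meaning. For H3K9me3 no within-number value can be given, because the listed values are not tied to animals. For H3K27ac the number 508 holds 1 library per genotype (10 and 10 members with a peak) and 2982 holds 2 (10 and 6 in KO, 10 and 7 in WT).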

Additional observations from a re-analysis of the deposited data

How the results depend on the processing

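All 9 Atf7ip regions stayed lower by the authors' calls at an adjusted p of 0.01 and at an absolute log2 fold change of at least 1. These thresholds could not change the count. The authors' adjusted p was at most 1.64e-09 at the 9 regions, and their log2 fold changes were -1.29 or lower. Being called is also the rule in the list, with 71.1% of regions called lower and 28.9% higher. Counting any region in the gene or within 1 kb also gave 9. By limma the number passing was 2, and it was 6 with a pseudocount of 5 (33.3% of all regions were lower), 0 without the mean-variance trend (as for all 50654 regions, of which 23535 were lower at an unadjusted p of 0.05), 9 with limma-voom on recovered reads, and 0 to 9 with 1 value left out (0 to 30932 of all regions). The cause was not tested. The Atf7ip sum kept its direction throughout, with log2 fold changes of -2.89 to -1.62 and adjusted p of 0.000345 to 0.124 with 1 value left out (limma). The mean number of genes with an H3K27ac peak was 5 in KO and 6.67 in WT among the strongest 10000 peaks of each list. At −log10 q of at least 5 the mean was 7 in both, from 10, 10 and 1 genes in each genotype. The third libraries thus marked only 1 gene each at that threshold. With 1 library left out the mean ran from 8 to 10 in KO and 8.5 to 10 in WT. Mecom and Mbd1 changed sign under median-ratio scaling, both to 0.17. Of the other comparisons with an alternative, 185 kept their side of the threshold, 28 gained it and 49 lost it. The low number of recovered reads limits the first listed KO value most. No paired analysis was possible because the listed H3K9me3 values are not tied to animals and the peak counts come from no test.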
